A study of Mus musculus with 15 samples.

Results

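The genes described here are 10 members of the growth hormone (GH) and insulin-like growth factor (IGF) system. They are the protease gene Pappa2, the feedback inhibitor gene Socs2, the receptor genes Ghr, Igf1r and Igf2r, the ligand genes Igf1 and Igf2, and the binding protein genes Igfbp2, Igfbp3 and Igfbp5. The list was chosen on results of these same arrays: Pappa2 and Socs2 were taken because they were lower in Pit1dw/dw than in Pit1+/+ pituitaries, and the others because they belong to the same system. The 10 genes are 10 of 18193 genes with a single symbol on the array, and they are read by 28 of 45037 probe sets.

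GH from the pituitary acts on its receptor, Ghr, and induces IGF1, which acts on the IGF1 receptor and feeds back on the pituitary and the hypothalamus. IGFs in tissue fluid are held by binding proteins, and the protease pappalysin 2, encoded by Pappa2, cleaves IGFBP3 and IGFBP5 and so frees the ligand. SOCS2 is induced by GH through STAT5 and damps signalling by the GH receptor.

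The RNA came from pituitaries of newborn mice at postnatal day 1 (P1), pooled by genotype and hybridised to Affymetrix mouse arrays, 1 array per pool. The 2 groups described hold 5 pools each: Pit1+/+ on the DW/J background (wild type) and Pit1dw/dw on DW/J, which carries the Snell dwarf allele of Pit1, the transcription factor gene on which the cells that make GH, prolactin and thyrotropin depend. All mice were fed a high fat chow. Neither the number nor the sex of the pituitaries in a pool is given in the sources used here. The allele is germline, and every cell of the animal carries it.

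The promoter of Pappa2 is shown because Pappa2, of the 10 members, had the lowest level in Pit1dw/dw relative to wild type and because the window holds the core of the site that the Pit1 protein binds. It is the stretch from 250 bases before to 50 bases after the RefSeq transcription start (build GRCm38.p6, minus strand, chr1:158958126-158958425), written 5′ to 3′.
Pappa2: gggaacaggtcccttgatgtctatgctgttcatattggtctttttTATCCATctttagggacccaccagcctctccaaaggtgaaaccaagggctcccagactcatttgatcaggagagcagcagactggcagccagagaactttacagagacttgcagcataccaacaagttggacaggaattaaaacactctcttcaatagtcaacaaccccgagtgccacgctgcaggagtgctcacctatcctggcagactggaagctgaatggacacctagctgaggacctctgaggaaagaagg
The capitals mark TATCCAT, a match to TATNCAT, 205 to 199 bases before the start. RefSeq promoters were held for 9 of the 10 members, 14 windows in all, and both strands were searched; the promoter of Socs2 was not searched. TATNCAT was found in 1 of these 14 windows, that of Pappa2, and in 2903 of all 32851 windows of the same length (8.84%). TTCNNNGAA, the type of site that STAT5 binds, was found in none of the 14 windows and in 2726 of all windows (8.3%). A match describes these letters alone.

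Signals are log2 RMA values, on which 1 unit is a doubling, and array medians lay between 4.31 and 4.43. Each gene is given by its brightest probe set unless another is named. The pools were checked against markers of the pituitary cell types. All 5 measured genes of the Pit1 lineage (Gh, Prl, Tshb, Ghrhr and Trhr) fell in Pit1dw/dw (limma, adjusted p under 0.05), and the mean of the list ran from 9.09 to 9.68 in wild type and from 5.05 to 5.72 in Pit1dw/dw. Gh itself was at 14.2 to 14.3 in wild type and at 7.15 to 10.3 in Pit1dw/dw. Of the gonadotroph markers 2 of 5 rose (limma, adjusted p under 0.05). Gnrhr, the receptor for gonadotropin releasing hormone, was at 6.18 to 7.22 in wild type and 8.07 to 8.53 in Pit1dw/dw. Nr5a1, a nuclear receptor gene, was at 4.64 to 5.70 and 6.44 to 7.25. The other 3 did not pass (limma). Lhb was at 7.706 to 10.192 and 7.175 to 10.362, Fshb at 6.731 to 9.2 and 5.108 to 8.647. Cga was at 12.582 to 13.07 and 11.616 to 12.607. The median log2 difference of the 5 markers was -0.075. The mean of the 3 corticotroph markers was 8.75 to 9.20 and 9.23 to 9.63, with 0 of 3 past the threshold (limma). Of the melanotroph, progenitor, mesenchyme, endothelium, pericyte, ganglion, bone, muscle, macrophage, red cell, neural lobe and oral epithelium markers 0 passed (limma). The genotype field of wild-type pool 1 conflicts with the rest of its labels, which place it in Pit1+/+, and its Gh of 14.2 lies within the range of the other wild-type pools. Pou1f1, the gene of Pit1, is not named by a probe set of its own in the annotation used, so it was not analysed here. The mean of 6 markers of sensory ganglion and Schwann cells was above 7 in wild-type pool 3 (10.02) and in Pit1dw/dw pools 2, 3 and 5 (7.57, 9.28 and 7.24), and 4.91 to 5.71 in the other 6 pools. One of the 6, Prph, was above 7 in the first 3 of these pools and at 3.51 in Pit1dw/dw pool 5. The RNA is from whole pituitaries, so fewer cells of a type and less RNA per cell cannot be told apart.

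Pit1dw/dw against Pit1+/+ is the comparison that chose Pappa2 and Socs2, so the 10 members are described in it without a test. Pappa2 and Socs2 were far lower in Pit1dw/dw, by 13.0-fold and 2.60-fold, and the receptor, ligand and binding protein genes differed by at most 1.64-fold. Over all genes, 30 of 18193 passed an adjusted p of 0.05 higher in Pit1dw/dw (0.165%) and 110 lower (0.605%), with limma and Benjamini-Hochberg adjustment. For 505 genes (2.78%) no pool of one group reached the range of the other. Pappa2 and Socs2 are among the 110 lower genes and are the 2 members whose groups did not overlap, as their choice fixes. Fitted as single probe sets, 4 of the members' 28 passed, where 0.371% of all 45037 did, and nothing is read from either count. The median log2 difference of the members was 0.13, against -0.02 over all genes.

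**Figure D1:**
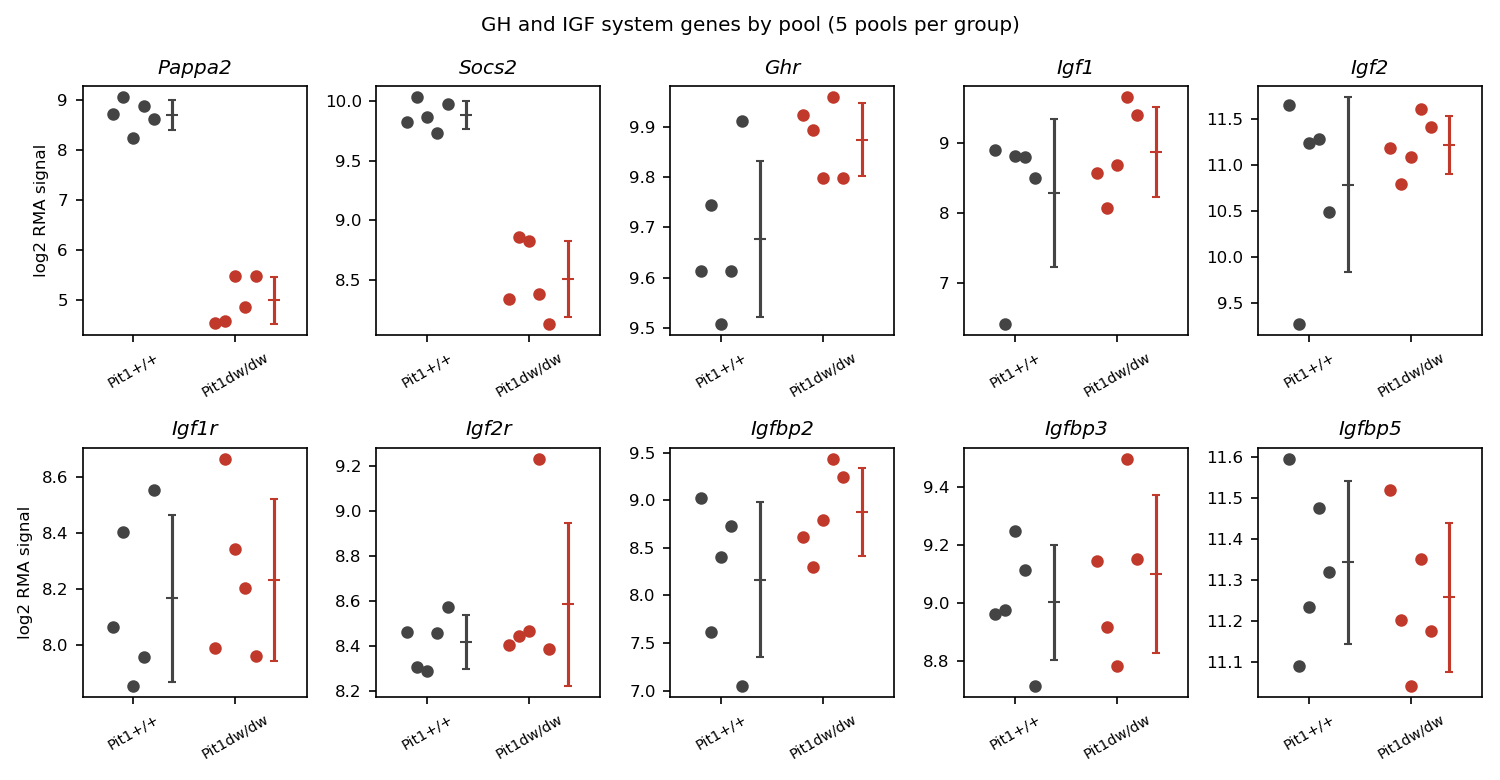
Log2 RMA signal of the 10 genes in each pool (y axis, 1 panel per gene, each with its own range), by group, with the mean and SD of 5 pools as bars beside the points. Pappa2 and Socs2 were below the wild-type range in every Pit1dw/dw pool, and the groups of the other 8 genes overlapped.

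Pappa2 encodes pappalysin 2, the protease that cleaves IGFBP3 and IGFBP5. In wild type its signal was 8.71, 9.05, 8.23, 8.88 and 8.62 in pools 1 to 5. In Pit1dw/dw it was 4.55, 4.59, 5.49, 4.87 and 5.50. Every Pit1dw/dw pool lay below the lowest wild-type pool, and the lowest ones, pools 1 and 2, lay close to the median of an array, which limits the precision of the fold.

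The mean of Pappa2 was 13.0-fold lower in Pit1dw/dw than in wild type (log2 difference -3.70, SE 0.41, n = 5 pools each). That SE rests on the spread in all arrays of the series, including those not described here. With only the 2 groups compared in the fit, the SE was 0.22 and the difference was the same. Over 24 alternative settings the difference ran from -4.11 to -3.59. It was -3.84 without the pools with Prph above 7, -4.11 without those with a ganglion list mean above 7, and -3.77 with the mean of the mesenchyme list as a covariate. The ganglion list cut, which gives the lower end of that range, was chosen after seeing the data and leaves 2 Pit1dw/dw pools. Pappa2 is read by 1 probe set (1444451_at), so no other probe set checks it.

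Pappa2 signals across the 10 pools were closest to those of Trhr, the receptor for thyrotropin releasing hormone, with a root mean square difference of 0.54 log2 units after each gene was set to its wild-type mean. The next were Neurod4, a transcription factor gene of neural and endocrine cells (0.89), Myo15, an unconventional myosin gene (0.94), and Ghrhr, the receptor for GH releasing hormone (0.97). Trhr stood at 7.08, 7.72, 6.35, 6.76 and 6.79 in wild type and at 3.499, 3.91, 3.49, 4.002 and 3.95 in Pit1dw/dw. Wild-type pool 2 was the highest and pool 3 the lowest of that group for both Pappa2 and Trhr, while within Pit1dw/dw pool 3 was the lowest for Trhr and close to the highest for Pappa2. Ghrhr stood at 9.59, 9.85, 9.45, 9.81 and 9.54 in wild type and at 4.62, 5.13, 4.69, 4.56 and 4.52 in Pit1dw/dw, a larger drop than that of Pappa2. These likenesses were ranked over all genes and are a description. The measure depends largely on the size of the drop in Pit1dw/dw, on which Pappa2 was chosen. It therefore ranks genes with a like drop more than a like course from pool to pool.

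**Figure D2:**
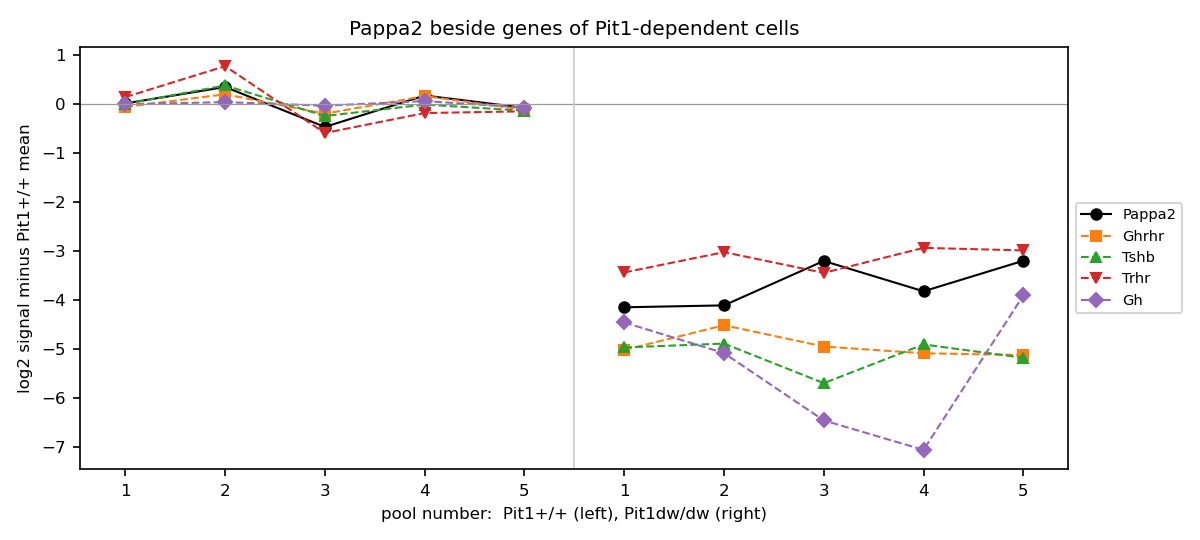
Log2 signal minus the Pit1+/+ mean (y axis) of Pappa2 and 4 genes of Pit1-dependent cells in each of the 10 pools (x axis, by group). In Pit1dw/dw the points of Pappa2 lie near those of Trhr and above those of Ghrhr and Tshb, and Gh varies most among the pools.

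Of the other proteases and inhibitors that act on IGF binding proteins, 6 of 6 listed genes were measured and 0 passed with limma, at an adjusted p or at an unadjusted p under 0.05. Pappa, the gene of the related protease pappalysin 1, was dim: its mean was 3.78 in wild type against 4.01 in Pit1dw/dw (limma adjusted p = 0.879). Stc2, which encodes stanniocalcin 2, an inhibitor of both pappalysins, was at 5.95 and 6.10 (limma adjusted p = 0.9), and Stc1, of the related stanniocalcin 1, at 4.23 and 4.30. Htra1, which encodes a secreted serine protease, had means of 10.24 and 11.02 (difference 0.78, SE 0.47, limma adjusted p = 0.73). It was lowest in wild-type pool 2 (8.17), and without that pool the difference was 0.26. Htra3, a gene of the same family, was at 9.15 and 9.72, and Adam12, of a membrane metalloprotease, at 8.595 and 8.84.

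Socs2 encodes a suppressor of cytokine signalling that limits GH receptor signalling. Its signal in wild type was 9.83, 10.03, 9.87, 9.73 and 9.98 in pools 1 to 5. In Pit1dw/dw it was 8.34, 8.86, 8.83, 8.39 and 8.13. Every Pit1dw/dw pool lay below the wild-type range.

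The mean of Socs2 was 2.60-fold lower in Pit1dw/dw than in wild type (log2 difference -1.38, SE 0.15, n = 5 pools each). Without the pools with Prph above 7 the difference was -1.61, and with the mean of the mesenchyme list as a covariate -1.28. Without the pools with a ganglion list mean above 7, which leaves 2 Pit1dw/dw pools, it was -1.53. The 6 probe sets of Socs2 all had a lower mean in Pit1dw/dw, by -1.38 to -0.53 log2 units. In 4 of the 6 the groups did not overlap. Next to the brightest, 1449109_at was at 7.01 to 7.52 in wild type and 5.65 to 6.499 in Pit1dw/dw. The other 4 were dimmer, with wild-type means of 4.07 to 5.74. With the mean of the 6 probe sets the difference was -0.91 (SE 0.14).

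**Figure D3:**
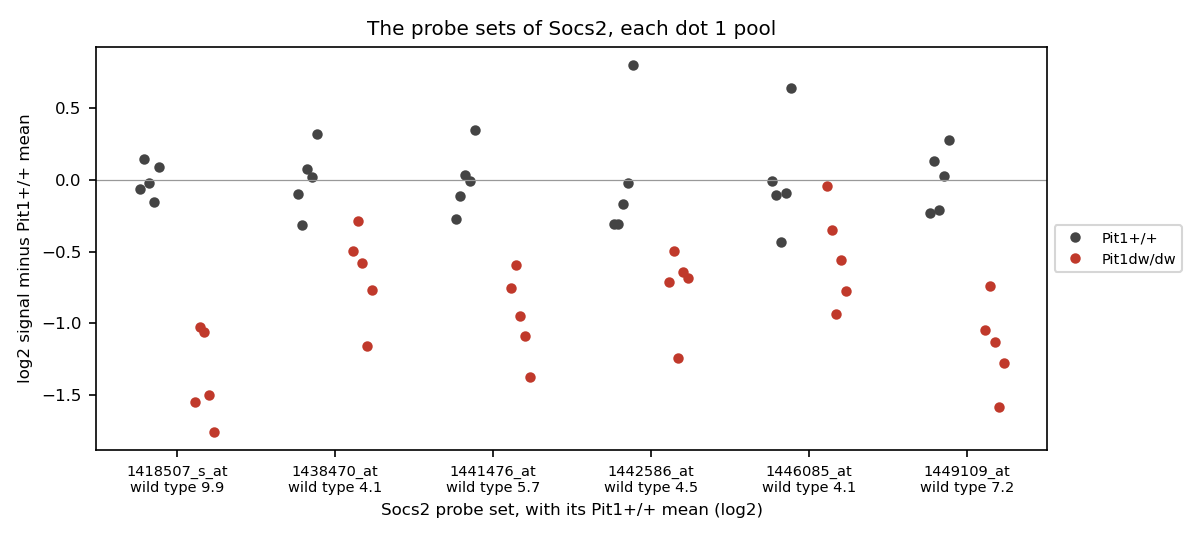
Log2 signal of the 6 Socs2 probe sets minus each one's Pit1+/+ mean (y axis), with each dot 1 pool. In 1418507_s_at, 1441476_at, 1442586_at and 1449109_at the groups do not overlap. In the dim 1438470_at and 1446085_at some Pit1dw/dw pools reach the wild-type range.

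Socs2 signals were closest to those of Minar1, with a root mean square difference of 0.22 log2 units over the 10 pools. As for Pappa2, this measure depends largely on the size of the drop on which the gene was chosen. AI504432 (0.27), Rap1gap2, which encodes a GTPase-activating protein for RAP1 (0.28), and Padi2, which encodes a peptidylarginine deiminase (0.29), followed. Minar1 averaged 7.53 in wild type and 6.18 in Pit1dw/dw, Rap1gap2 8.63 and 7.45, and Padi2 7.79 and 6.16. Cish and Socs3 encode other suppressors of the same family. Cish was at 5.42, 5.45, 5.31, 5.24 and 4.75 in wild type and 4.58, 5.13, 4.88, 5.12 and 4.43 in Pit1dw/dw, a difference of -0.41 that did not pass (SE 0.19, limma adjusted p = 0.579). Socs3 had means of 8.37 and 8.38.

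Among the receptors, Ghr encodes the GH receptor. Its signal was 9.61, 9.75, 9.51, 9.61 and 9.91 in wild type and 9.92, 9.89, 9.80, 9.96 and 9.80 in Pit1dw/dw. All Pit1dw/dw pools lay above 4 of the 5 wild-type pools, and pool 5 of wild type lay within their range. Pit1dw/dw was 0.20 above wild type (SE 0.11), and 0.26 without wild-type pool 5. The 3 probe sets of Ghr differed by 0.17 to 0.30, all in that direction. Of them, 1451871_a_at (0.17) was below the median of its array in all 10 pools.

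Igf1r encodes the tyrosine kinase receptor through which IGF1 and IGF2 signal. In its brightest probe set, 1428967_at, wild type stood at 8.06, 8.40, 7.85, 7.96 and 8.56 in pools 1 to 5. Pit1dw/dw stood at 7.99, 8.67, 8.34, 8.20 and 7.96. The groups overlapped and differed by 0.07 (SE 0.20, 95% interval -0.37 to 0.498), and the sign turned in 5 of 24 alternatives (range -0.20 to 0.24). The other 4 probe sets differed by -0.23 to 0.07. Of these, 1452982_at was the brightest, at 6.29 to 6.86 in wild type and 6.29 to 6.87 in Pit1dw/dw. The lowest of the 4 differences (1452108_at) and the highest (1446303_at) came from probe sets below the array median in all 10 pools.

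Igf2r encodes the mannose 6-phosphate receptor that takes up IGF2 and leads it to the lysosome. Its brighter probe set was at 8.46, 8.30, 8.29, 8.46 and 8.57 in wild type and 8.40, 8.44, 8.47, 9.23 and 8.39 in Pit1dw/dw. Pit1dw/dw pool 4 lay apart from its group and above every other pool. The difference was 0.17 (SE 0.16), and 0.008 (SE 0.12) without Pit1dw/dw pool 4. The dimmer probe set, 1424112_at, was at 3.71 to 4.05 in wild type and at 3.51 to 4.69 in Pit1dw/dw, where pool 4 was again the highest.

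**Figure D4:**
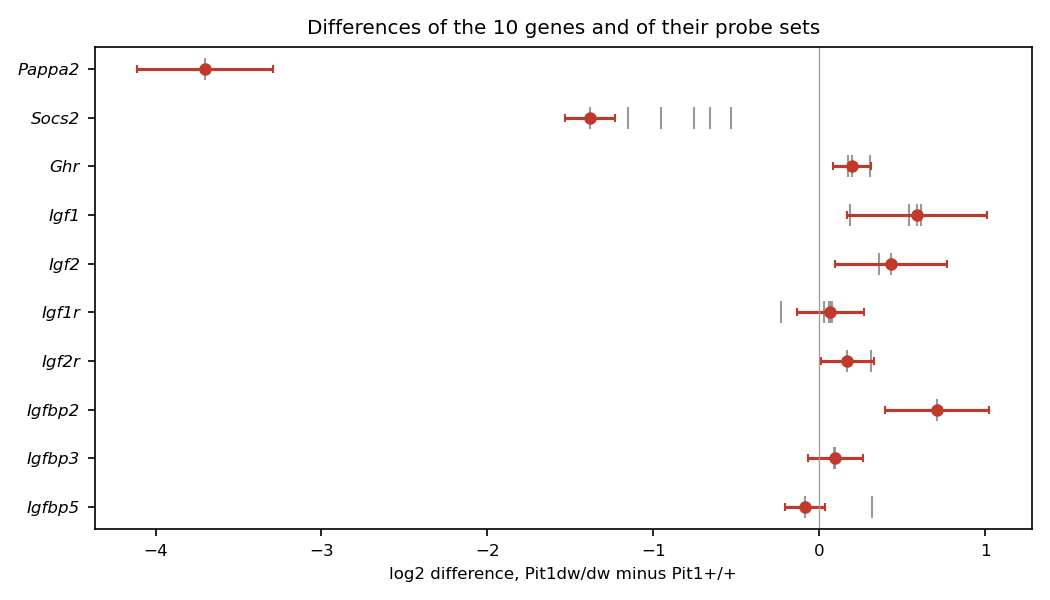
Log2 difference between the means of Pit1dw/dw and Pit1+/+ (x axis) for the 10 genes, with the standard error of the limma fit as bars. Grey ticks are the single probe sets of each gene. All 6 ticks of Socs2 lie below 0, and those of Igf1r and Igfbp5 lie on both sides of 0.

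Of the ligands, Igf1 encodes the main mediator of GH action and Igf2 the growth factor of the fetus. Igf1 was at 8.90, 6.41, 8.81, 8.80 and 8.50 in wild-type pools 1 to 5 and at 8.57, 8.07, 8.68, 9.65 and 9.40 in Pit1dw/dw. Igf2 was at 11.66, 9.27, 11.24, 11.29 and 10.49 and at 11.19, 10.79, 11.09, 11.61 and 11.42. Both genes were lowest of the 10 pools in wild-type pool 2, and the groups overlapped.

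Pit1dw/dw was 0.59 above wild type for Igf1 (SE 0.42) and 0.43 for Igf2 (SE 0.34). Without wild-type pool 2 these differences were 0.12 and 0.05, and without the pools with Prph above 7 they were 1.05 (SE 0.52) and 0.73 (SE 0.45). The 4 probe sets of Igf1 (0.19 to 0.61) and the 2 of Igf2 (0.36 and 0.43) had the same sign.

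The mesenchyme markers were among those that moved with these values. The mean of the 9 genes of that list (among them Col1a1, Col3a1, Pdgfra and Postn) was 8.83 in wild-type pool 2 and 9.57 to 9.91 in the other wild-type pools. It was 9.44 to 10.04 in Pit1dw/dw, where pool 4 was the highest and pool 2 the lowest, as for Igf1 and Igf2. With the mean of this list as a covariate, the difference from wild type was 0.035 for Igf1 (SE 0.19) and -0.012 for Igf2 (SE 0.15). With the means of the ganglion and bone lists as covariates it was 0.558 (SE 0.35) and 0.404 (SE 0.29). The cause of the difference was not tested.

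**Figure D5:**
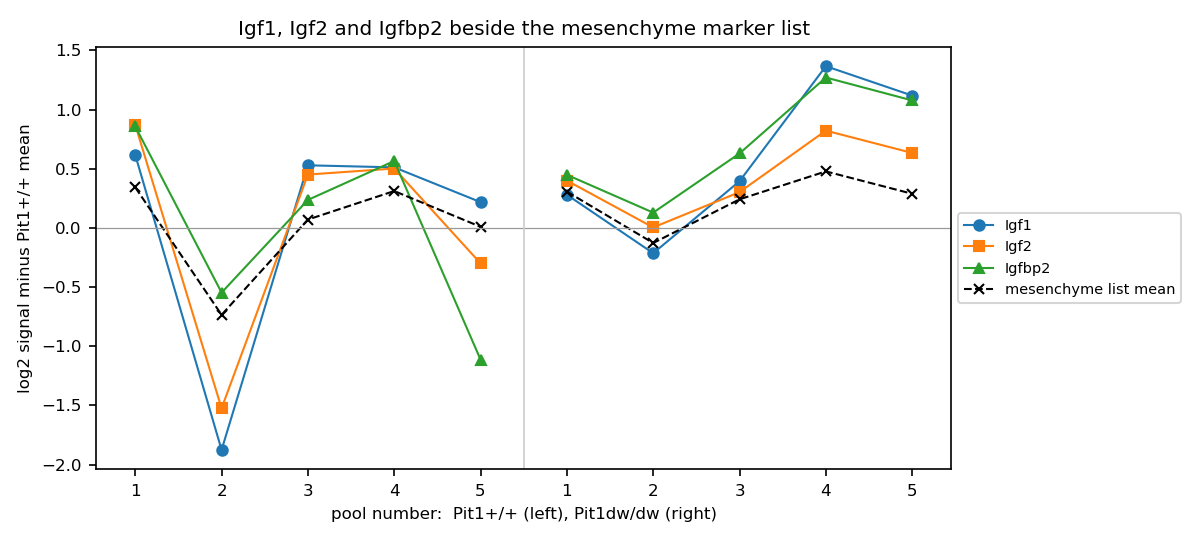
Log2 signal minus the Pit1+/+ mean (y axis) of Igf1, Igf2 and Igfbp2 and of the mean of 9 mesenchyme markers (dashed) in each of the 10 pools (x axis, by group). All 4 lines are low in wild-type pool 2 and highest within Pit1dw/dw in pool 4.

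Igfbp2 encodes a binding protein that is abundant in fetal tissue. Its signal was 9.02, 7.62, 8.40, 8.73 and 7.05 in wild type and 8.61, 8.29, 8.79, 9.44 and 9.24 in Pit1dw/dw. Wild-type pools 2 and 5 were the lowest of all, and Pit1dw/dw pools 4 and 5 were above the wild-type range. Pit1dw/dw was 0.71 above wild type, or 1.64-fold (SE 0.31, 95% interval 0.05 to 1.38, not adjusted for the number of genes). Leaving out wild-type pool 2 gave 0.57 and leaving out wild-type pool 5 gave 0.43. The difference was 0.99 without the pools with Prph above 7 and 0.42 with the mean of the mesenchyme list as a covariate. Igfbp2 has 1 probe set.

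Igfbp3 and Igfbp5 encode the binding proteins that pappalysin 2 cleaves. Igfbp3 was at 8.96, 8.98, 9.25, 9.11 and 8.71 in wild type and 9.14, 8.92, 8.78, 9.497 and 9.15 in Pit1dw/dw. Igfbp5 was at 11.595, 11.09, 11.23, 11.48 and 11.32 in wild type and 11.52, 11.20, 11.04, 11.35 and 11.17 in Pit1dw/dw. The groups overlapped for both genes, and the differences were 0.10 (SE 0.17, 95% interval -0.26 to 0.45) and -0.09 (SE 0.12, 95% interval -0.34 to 0.17). That of Igfbp5 was 0.12 with the mean of its 2 probe sets. The second probe set of Igfbp3 differed by 0.09 (SE 0.19) and that of Igfbp5 by 0.32 (SE 0.22).

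A list of 59 other genes of the pathway was examined as well, of which 51 were measured. Of the 51, 0 passed with limma and 7 had an unadjusted p under 0.05 (13.7%, 2 higher and 5 lower). Of all genes 1539 did (8.46%, 540 higher and 999 lower). The median difference was -0.03. By role, the counts at an unadjusted p under 0.05 were 4 of 11 in GH receptor signalling, 2 of 23 in IGF and insulin receptor signalling, 1 of 6 other binding proteins, 0 of 6 proteases and inhibitors and 0 of 5 ligands, receptors and RNA binders.

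The 7 genes are named after their values were seen. In GH receptor signalling all 4 had a lower mean in Pit1dw/dw: Stat5a and Stat5b, which encode the factors that carry the signal of the GH receptor to the nucleus, Cish, and Ptpn11, which encodes the phosphatase SHP2. Stat5a was at 7.35, 7.17, 7.18, 7.26 and 7.07 in wild type and 6.73, 6.84, 7.18, 6.89 and 6.81 in Pit1dw/dw (difference -0.32, SE 0.13, limma adjusted p = 0.465). Stat5b was at 6.77, 6.66, 6.80, 6.87 and 6.18 and at 6.22, 6.195, 6.16, 6.52 and 6.28 (-0.38, SE 0.17, limma adjusted p = 0.532). The groups overlapped for both genes. Ptpn11 had means of 10.84 and 10.66 (limma adjusted p = 0.586). Jak2, the kinase that binds the GH receptor, averaged 10.11 in wild type and 10.08 in Pit1dw/dw.

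In IGF and insulin receptor signalling, Pik3r1, which encodes the regulatory subunit of the PI3 kinase, averaged 8.995 in wild type and 9.45 in Pit1dw/dw (difference 0.46, limma adjusted p = 0.297). Rictor, of the second mTOR complex, had means of 5.95 and 5.55 (limma adjusted p = 0.425). Irs1 and Irs4, which encode docking proteins of the insulin and IGF1 receptors, were at 9.38 and 9.37 and at 9.95 and 9.77. Among the other binding proteins, Igfbp1 was at 4.52 and 5.18 (0.65, limma adjusted p = 0.411) and Igfbp4 at 9.16 and 9.59 (0.44, limma adjusted p = 0.768). Igfbp4 was lowest in wild-type pools 2 and 5 (8.37 in each), the pools in which Igfbp2 was lowest.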

How the data were processed

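The deposited values are log2 signals (1.83 to 14.8), which the authors made with RMA, per the submitters' processing notes. RMA corrects background, equalises array distributions by quantiles and summarises probes. The RMA version was not given in the sources used here. Per the labels' protocols, RNA was pooled, so the spread is that between pools. The number of arrays limits the precision.

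The file holds 45101 probe sets, of which 64 are controls and were not tested. Of the others, 34945 name 1 gene in the annotation used, 932 several and 9160 none (34741 were matched to current records by ID). For each of 18193 genes the probe set brightest on average stood for the gene (9010 have more than 1). Igf2r shares 1 further probe set with Airn, at 3.05 to 3.88 in the 10 pools, which was not used. One model of group means over all 15 arrays was fitted in limma 3.58.1 (R 4.3.3; lmFit, eBayes, two-sided), with Benjamini-Hochberg adjustment over all genes and a threshold of 0.05. The 5 arrays of the series beyond the 10 described add to its estimate of the spread alone and are not reported here. Intervals are of that fit.

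Members and lists were chosen with earlier results of these data known. The text names all members, up to 6 other pathway genes among those past the threshold (0 here), and the 4 nearest patterns to Pappa2 and Socs2, here over the 10 pools described; other genes were named after their values were seen. Besides leaving out each pool, 14 alternatives were tried, 1 of them (pools with a ganglion list mean above 7 left out) chosen after seeing the data. Sequences are from RefSeq. Figures were drawn with matplotlib 3.10.9.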

Additional observations from a re-analysis of the deposited data

Results flagged for a closer look

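Among the 56 groups of 5 pools formed by the 28 probe sets in 2 groups, 7 (12.5%) held a pool whose gap to its nearest neighbour was large for the range of its group (Dixon's criterion, which chance meets in about 1 of 20 groups). For Igf1, wild-type pool 2 was low in 1434413_at (6.41, next 8.50) and in 1437401_at (6.17, next 7.76); the mesenchyme list was also lowest in that pool (8.83), and its part in the result was not tested. Igf2r was high in Pit1dw/dw pool 4 (9.23 in 1424111_at, next 8.47). In a dim Socs2 probe set, 1442586_at, wild-type pool 5 was high (5.31, next 4.49) and Pit1dw/dw pool 3 low (3.27, next 3.796). For Ghr, the dim 1451871_a_at was high in Pit1dw/dw pool 1 (3.61, next 3.18). For Igf1r, 1426565_at was low in wild-type pool 5 (3.87, next 4.57).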

How the results depend on the processing

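Pappa2 and Socs2 were lower in Pit1dw/dw in all 24 alternatives (-4.11 to -3.59 and -1.61 to -0.91). Both were chosen as lower on these same arrays, so their sign in these refits adds no support. Ghr ran from 0.154 to 0.255, Igf1 from 0.035 to 1.05, Igf2 from -0.012 to 0.731, Igf2r from 0.008 to 0.369 and Igfbp2 from 0.253 to 0.991. The differences of Igf1r, Igf2, Igfbp3 and Igfbp5 turned sign in 5, 1, 1 and 2 alternatives. With array weights, genes past the threshold went from 140 to 571 and other pathway genes from 0 to 2. Without the pools with Prph above 7, 51 genes passed, and without those with a ganglion list mean above 7, which leaves 2 Pit1dw/dw pools, 26. With every probe set on its own, 4 of the 28 probe sets of the members passed, against 2 genes, where 167 of all 45037 passed; this comparison chose Pappa2 and Socs2, so nothing is read from it. The causes were not tested beyond the sets of samples and probe sets used.

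Leaving out 1 pool gave 83 to 161 genes. The lowest counts were 86 without wild-type pool 2 or 4, and 83, 93 and 90 without Pit1dw/dw pool 2, 4 or 5. The main fit did not pair the pools by number. Deviations of same-numbered pools correlated at -0.196 to 0.639, over 0.1 in 3 of 5 pairs. The highest was for pool 3, whose ganglion list mean was the highest in both groups. Each pool was matched against the 5 pools of the other group, and 5 of the 10 pools were closest to their own number. These values do not decide whether pools of the same number belong together. With the replicate number as a block 137 genes passed. Dim probe sets, near or below the array median of 4.31 to 4.43, limit what can be seen. This holds for Pappa2 in Pit1dw/dw and for the minor probe sets of Socs2, Igf1r, Igf2r and Ghr.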
